A study of Mus musculus with 20 samples.

Results

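The mouse genome encodes a small family of steroid hormone receptors, and 5 of its members, taken by their symbols from the count table, are described here in the ventral prostate: Nr3c1 (the glucocorticoid receptor), Nr3c2 (the mineralocorticoid receptor), Pgr (the progesterone receptor), Esr1 (oestrogen receptor alpha) and Esr2 (oestrogen receptor beta). All 5 were present among the 43472 genes of the count table, and all 5 passed the filter on low values that left 15261 genes to test. Ventral prostate RNA was sequenced as 20 libraries, in 4 groups of 5. Every donor male had been orchidectomised, which removes the main source of androgen, and was then given either vehicle or testosterone for 4 days. Wild type males of the C57BL/6J strain (WT) were compared, under each treatment, with ARNoC/Y males (ARNoC), which carry on their single X chromosome an androgen receptor gene altered so that the amino-terminal and carboxyl-terminal parts of the protein do not interact. The sources used here do not give the ages of the mice, the testosterone dose or the time between surgery and treatment. Nothing in the labels says whether each library came from a different animal, so the p-values describe spread among libraries, which may be partly technical.

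Steroid receptors are ligand-activated transcription factors. In the unbound state they are held by heat-shock chaperones, and on binding hormone they pair, enter or stay in the nucleus and bind DNA response elements. The glucocorticoid, mineralocorticoid and progesterone receptors recognise the same palindromic element as the androgen receptor, whereas the oestrogen receptors recognise a different one. In the rodent prostate oestrogen receptor alpha is known mainly from the stroma and oestrogen receptor beta mainly from the epithelium. Which hormones reach these receptors is set within the tissue by enzymes that make or inactivate their ligands.

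Libraries held 8861646 to 21600352 counts. All 40 pairs of libraries within a group were further apart than counting noise. The labelled tissue carried its defining markers: Sbp (spermine-binding protein, a secretory product of the ventral prostate) averaged 502370 normalized counts (counts divided by the size factor of the library) in WT with vehicle, and the prostate homeobox gene Hoxb13 averaged 4993. The 8 seminal vesicle markers had means of at most 2.82 normalized counts, and none was tested. In WT the share of the library taken by its 10 leading genes was 7.99% to 9.56% under vehicle and 21.4% to 28.1% under testosterone, and in ARNoC 6.81% to 10.4% and 18.4% to 20.8%. Scaling by trimmed means left the median gene near 0 in both testosterone responses (log2 −0.02 in WT and −0.01 in ARNoC), whereas scaling by total counts moved it by −0.42 and −0.35. Fold changes below are therefore relative to the typical gene of the tissue.

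After testosterone, transcripts of Esr1 and Nr3c2 were called lower in both genotypes, Nr3c1 in WT, and Esr2 in ARNoC. In ARNoC Nr3c1 and Esr2 had close log2 fold changes (−0.32 for both, edgeR adjusted p = 0.0523 and 0.0339). In ARNoC the call of each changed under some settings, and for neither gene was a genotype difference in response called. Pgr passed the test in neither genotype. In WT, 3 of the 5 receptors were called lower and none higher at an adjusted p under 0.05, where 18.8% of all tested genes were called lower and 39.2% were called in either direction. In ARNoC, 3 of the 5 were called lower and none higher, where 16.8% of all genes were called lower and 36.2% in either direction. The median log2 fold change of the 5 receptors was −0.50 in WT and −0.43 in ARNoC, beside −0.02 and −0.01 over all genes. Without overlap between libraries, 3 receptors were lower in WT (11.9% of all genes) and 2 in ARNoC (10.7% of all genes). A bulk library cannot tell fewer cells of a type from less RNA per cell, and this holds for each value that follows.

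**Figure D1:**
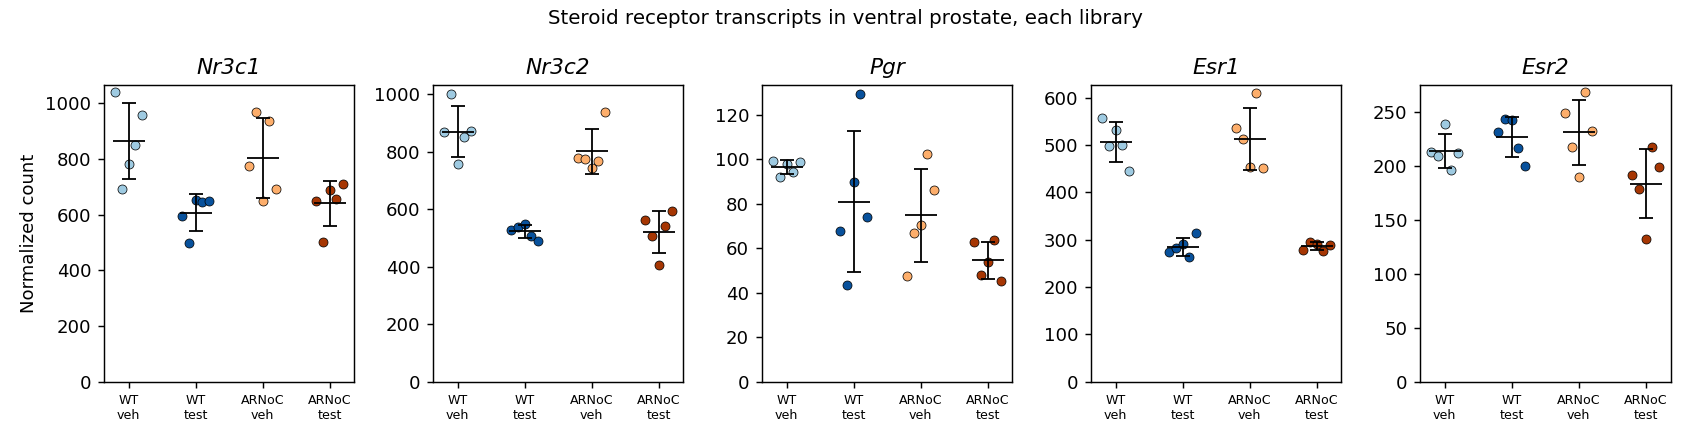
Normalized counts of Nr3c1, Nr3c2, Pgr, Esr1 and Esr2 (vertical axes, from 0) in each of the 20 libraries, by group (veh, vehicle; test, testosterone). Points are libraries, long bars are means and whiskers are SD (n = 5). For Esr1 and Nr3c2 every testosterone library sits below every vehicle library of its genotype, while the Esr2 and Pgr libraries overlap.

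A stretch before a RefSeq start is shown for 3 of these genes because Esr1 and Nr3c2 fell in both genotypes and Esr2, whose protein binds the same DNA element as that of Esr1, did not fall in WT. Sequences are in GRCm38.p6, 5′ to 3′ on the strand of the gene, and were cut so that they hold no annotated exon. The Esr2 stretch directly precedes the annotated gene. The RefSeq starts used for Nr3c2 and Esr1 lie downstream of the outermost annotated starts, so both stretches fall within the gene bounds given below, between annotated exons. Capitals mark the core motif GGTCA of the oestrogen receptor element on either strand (TGACC is the same motif on the opposite strand).
Nr3c2 (chr8:76902080-76902287, plus strand): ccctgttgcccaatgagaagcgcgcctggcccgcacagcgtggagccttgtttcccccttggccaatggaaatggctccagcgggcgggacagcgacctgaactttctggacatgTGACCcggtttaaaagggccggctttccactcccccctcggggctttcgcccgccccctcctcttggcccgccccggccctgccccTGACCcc
Esr1 (chr10:4709908-4710154, plus strand): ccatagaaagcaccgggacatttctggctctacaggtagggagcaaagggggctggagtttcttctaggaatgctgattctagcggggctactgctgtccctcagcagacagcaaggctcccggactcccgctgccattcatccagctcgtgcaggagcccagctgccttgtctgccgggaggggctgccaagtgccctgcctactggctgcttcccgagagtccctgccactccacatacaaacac
Esr2 (chr12:76177260-76177509, minus strand): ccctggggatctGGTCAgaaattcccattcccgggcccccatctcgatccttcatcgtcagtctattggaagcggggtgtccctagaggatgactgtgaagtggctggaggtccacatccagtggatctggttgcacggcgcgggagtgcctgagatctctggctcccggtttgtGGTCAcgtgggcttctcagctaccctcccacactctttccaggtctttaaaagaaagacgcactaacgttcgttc
The stretch before Nr3c2 holds the core motif 2 times and that before Esr2 also 2 times, while the Esr1 stretch shown holds none. Esr1 has another RefSeq promoter, from chr10:4611739, which is not shown. It and the promoter of Pgr hold the core motif 0 times. Among 32851 RefSeq promoters of 250 bases, 35.2% hold GGTCA on some strand. The full oestrogen receptor element, GGTCA and TGACC 3 bases apart, which contains the core motif on both arms, was found in 0.0639% of promoters and in none of the 5 promoters listed for 4 of the receptors. The element of the glucocorticoid receptor class, AGAACA and TGTTCT 3 bases apart, was found in 0.00913% of promoters and its arm TGTTCT in 16.1%, and neither occurs in those 5. A match is a description of letters in these windows and does not show a bound site.

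Esr1 encodes oestrogen receptor alpha and lies at chr10:4611593-5005614 (mm10, plus strand). In WT with vehicle its 5 libraries had 558, 498, 533, 499 and 446 normalized counts, and with testosterone they had 274, 282, 292, 263 and 314. The highest WT testosterone library was therefore below the lowest WT vehicle library. In ARNoC the vehicle libraries had 537, 512, 454, 610 and 452, and the testosterone libraries had 277, 296, 290, 277 and 288. Again the groups did not overlap. The mean moved from 506.9 ± 42.0 to 284.8 ± 19.2 (SD, n = 5) in WT and from 513 ± 65.4 to 285.9 ± 8.38 in ARNoC. The log2 fold change was −0.82 ± 0.08 (SE; edgeR quasi-likelihood test, Benjamini-Hochberg adjusted p = 1.31e-07), a change of −43.4% (95% interval, −49.7% to −36.4%). In ARNoC it was −0.84 ± 0.08 (adjusted p = 1.01e-07), a change of −44.0% (−50.1% to −37.1%). Of all tested genes, 11.3% had a lower log2 fold change in WT and 8.22% in ARNoC, so Esr1 lay in the lower part of the distribution without being extreme. The difference between the responses was −0.01 on the log2 scale, with an interval of −0.25 to 0.22.

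Markers of several cell types moved with testosterone too. The stromal score was the mean log2 level of 20 fibroblast and stromal markers, all detected, and smooth muscle markers formed a separate list. It ran from 8.54 to 10.95 in WT with vehicle and from 7.31 to 9.41 with testosterone (difference −1.25, exact permutation test, p = 0.0635, adjusted over 11 lists 0.0998). In WT 8 of the 20 were called lower, beside 18.8% of all genes. In ARNoC the score ran from 7.77 to 10.9 and from 8.59 to 9.99 (difference −0.41, exact permutation p = 0.508), and 2 of the 20 were called lower, beside 16.8% of all genes. The smooth muscle score moved the other way, by 0.43 in WT and 0.77 in ARNoC (exact permutation p = 0.254 and 0.0556, adjusted 0.31 and 0.116). Of its 12 markers, 1 was called higher in WT and 6 in ARNoC, beside 20.4% and 19.4% of all genes, and 0 were called lower. The 14 luminal epithelial markers, all detected, ran from 11.08 to 11.4 with vehicle and from 10.7 to 11.06 with testosterone in WT, without overlap (difference −0.41, exact permutation p = 0.00794, adjusted 0.0218). In ARNoC they ran from 11.01 to 11.3 and from 10.7 to 10.99, again without overlap (difference −0.32, exact permutation p = 0.00794, adjusted 0.0291). Myeloid markers fell in WT (difference −1.86, exact permutation p = 0.00794, adjusted 0.0218), with all 14 tested members called lower. In ARNoC their difference was −1.08 (exact permutation p = 0.0238, adjusted 0.0655), with 11 of 14 called lower. Lymphocyte markers fell by 1.57 in WT and by 1.18 in ARNoC on the log2 scale, with 8 and 6 of 10 tested members called lower (exact permutation p = 0.00794 for each, adjusted 0.0218 and 0.0291). With the stromal score as a covariate the Esr1 fold changes were −0.76 and −0.81, and without both stroma-poor vehicle libraries (WT vehicle library 2 and ARNoC vehicle library 5) they were −0.83 and −0.88. The part of the smooth muscle, epithelial and immune cell markers in the receptor results was not tested.

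Esr2, which encodes oestrogen receptor beta, lies at chr12:76120419-76177259 (mm10, minus strand). Its libraries had 213, 209, 239, 195 and 212 normalized counts in WT with vehicle and 231, 243, 242, 216 and 199.7 with testosterone, so that the groups overlapped. The ARNoC libraries had 249, 217, 189, 268 and 231.5 with vehicle and 191, 178, 132, 217 and 198 with testosterone. There, 2 testosterone libraries were below every vehicle library and the other 3 lay within their range. The WT log2 fold change was 0.09 ± 0.12 (95% interval, −0.15 to 0.33; adjusted p = 0.567). Under total-count scaling it was −0.34 (adjusted p = 0.0165), which is 0.11 above the median gene on that scale. In ARNoC it was −0.32 ± 0.11 (−0.56 to −0.08; adjusted p = 0.0339), a change of −19.98%. That call was lost when any of 4 libraries was left out: adjusted p was 0.0779 without ARNoC vehicle library 1, 0.0936 without library 4, 0.0538 without library 5, and 0.0551 without ARNoC testosterone library 3, which had the 132 counts. It was also lost with limma-voom (adjusted p = 0.0506) and with ARNoC libraries fitted alone (0.0677). The interaction (the response of ARNoC less that of WT) was −0.41 ± 0.16 (interval −0.75 to −0.07), with edgeR's adjusted p at 0.501 (0.0202 before adjustment), so a genotype difference in the Esr2 response was not called.

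Because both oestrogen receptor genes are read in the same library, their ratio does not depend on scaling between libraries. Its level depends on the length used, and per length of the longest transcript the geometric mean with vehicle was 1.26 in WT and 1.18 in ARNoC. Per length of exon, the Esr1 to Esr2 ratio was 0.518 to 0.645 in WT with vehicle (geometric mean 0.584) and 0.286 to 0.387 in WT with testosterone (geometric mean 0.310), with no overlap. The log2 ratio differed by −0.91. The exact two-sided permutation test gave p = 0.00794, the smallest that 5 against 5 libraries allow, and 0.0635 after adjustment over the 8 ratio tests. Over 8 tests a single ratio at that smallest p cannot reach an adjusted p under 0.05, however well its groups are separated. ARNoC libraries ran from 0.481 to 0.591 with vehicle (geometric mean 0.548) and from 0.315 to 0.540 with testosterone (geometric mean 0.389), with overlap (log2 difference −0.49, exact permutation p = 0.0238, adjusted 0.0952). Under testosterone the ratio was higher in ARNoC than in WT by 0.33 on the log2 scale, which did not pass (exact permutation p = 0.0794, adjusted 0.212). The Nr3c1 to Nr3c2 ratio moved from 0.832 to 0.975 in WT and from 0.838 to 1.04 in ARNoC (exact permutation p = 0.206 and 0.198, adjusted 0.33 for both), and the groups overlapped.

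**Figure D2:**
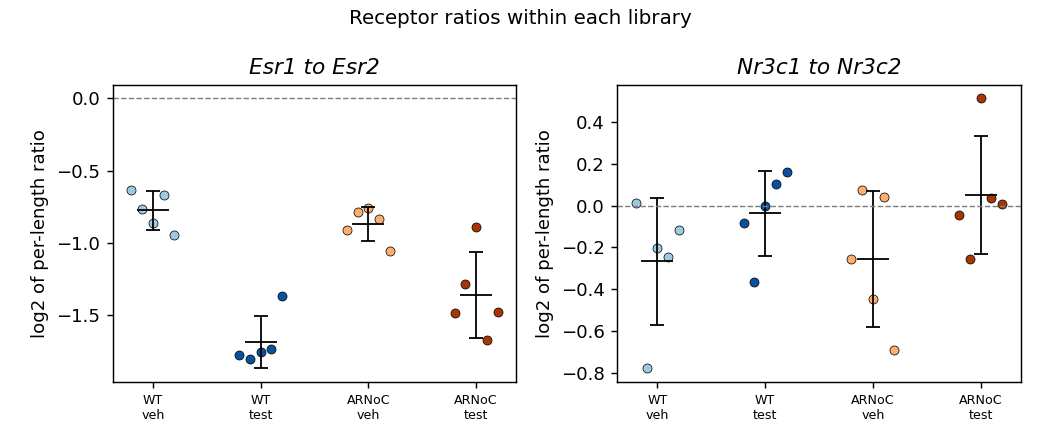
Log2 of the Esr1 to Esr2 ratio (left) and of the Nr3c1 to Nr3c2 ratio (right) per length of exon within each library, by group. Points are libraries, long bars are means and whiskers are SD (n = 5), and the dashed line marks equal levels by this length. WT testosterone libraries lie below all WT vehicle libraries on the left, whereas the groups overlap on the right.

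Nr3c2 encodes the mineralocorticoid receptor, which binds aldosterone and also glucocorticoids, and lies at chr8:76899442-77245012 (mm10, plus strand). In WT with vehicle its libraries had 868, 1003, 758, 850.5 and 873 normalized counts, and with testosterone 529.7, 539.8, 549, 507 and 490.1. In ARNoC they had 779, 776, 746, 768 and 939.9 with vehicle and 564, 507, 405, 541 and 595 with testosterone. Neither genotype showed any overlap between vehicle and testosterone. The means were 870.6 ± 87.6 and 523 ± 24.1 (SD, n = 5) in WT and 802 ± 78.4 and 522 ± 73.0 in ARNoC. The log2 fold change was −0.73 ± 0.09 in WT (adjusted p = 3.73e-06), a change of −39.6% (95% interval, −47.2% to −30.9%). In ARNoC it was −0.61 ± 0.09 (adjusted p = 2.86e-05), a change of −34.6% (−42.7% to −25.2%). The interaction was 0.12 (interval −0.16 to 0.39; adjusted p = 0.826). With the stromal score as a covariate the fold changes were −0.83 and −0.64. The antisense gene Gm10649 shares exon sequence with Nr3c2, and the sources used here do not give the strand setting of the counting, but Gm10649 had 34 counts over all 20 libraries.

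Nr3c1 encodes the glucocorticoid receptor and lies at chr18:39410545-39519421 (mm10, minus strand). Its libraries had 1039, 694, 782, 851 and 957 normalized counts in WT with vehicle and 594, 497, 651, 647 and 649.8 with testosterone. The WT groups did not overlap. In ARNoC the values were 774, 971, 649.8, 937 and 692 with vehicle and 649, 503, 687, 658 and 709.8 with testosterone. Here only 2 testosterone libraries lay below every vehicle library. The log2 fold change in WT was −0.50 ± 0.13 (95% interval, −0.76 to −0.24; adjusted p = 0.0037), a change of −29.2%. In ARNoC it was −0.32 ± 0.12 (−0.58 to −0.06), with an adjusted p of 0.0523, just above the threshold. The ARNoC value passed when any of 4 libraries was left out: −0.39 without ARNoC vehicle library 3 (adjusted p = 0.0236), −0.37 without library 5 (0.0358), −0.38 without ARNoC testosterone library 3 (0.0397) and −0.40 without library 5 (0.0328). It also passed with DESeq2 (−0.33, adjusted p = 0.0459). The interaction was 0.18 (interval −0.19 to 0.55; adjusted p = 0.808), so the responses were not shown to differ. With the stromal score as a covariate the WT value was −0.28 (adjusted p = 0.0389) against −0.50 without it, and the ARNoC value was −0.25 (adjusted p = 0.0313).

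Pgr encodes the progesterone receptor, a gene often induced by oestrogen receptor alpha in female reproductive tissue, and lies at chr9:8899833-8968611 (mm10, plus strand). It was the least abundant of the 5, with 37 to 118 raw counts per library. In WT with vehicle its libraries were close together, at 99.2, 92.2, 97.8, 94.5 and 99.0 normalized counts. With testosterone they spread from 43.6 to 129, with 67.8, 89.96 and 74.1 between. Whether the spread differed between these groups was not tested. The ARNoC libraries had 47.4, 67.1, 70.7, 102.5 and 86.1 with vehicle and 62.7, 48.0, 53.9, 63.6 and 45.1 with testosterone, and the groups overlapped in both genotypes. The log2 fold change was −0.24 ± 0.23 in WT (95% interval, −0.72 to 0.23; adjusted p = 0.413) and −0.43 ± 0.23 in ARNoC (−0.91 to 0.04; adjusted p = 0.15). Neither interval excludes a fall as large as that of Nr3c1. In WT the value was −0.52 without testosterone library 4, the library with 129 (adjusted p = 0.058). Under total-count scaling the values were −0.65 (adjusted p = 0.0237) and −0.77 (adjusted p = 0.0111), below the median gene by 0.21 and 0.42.

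**Figure D3:**
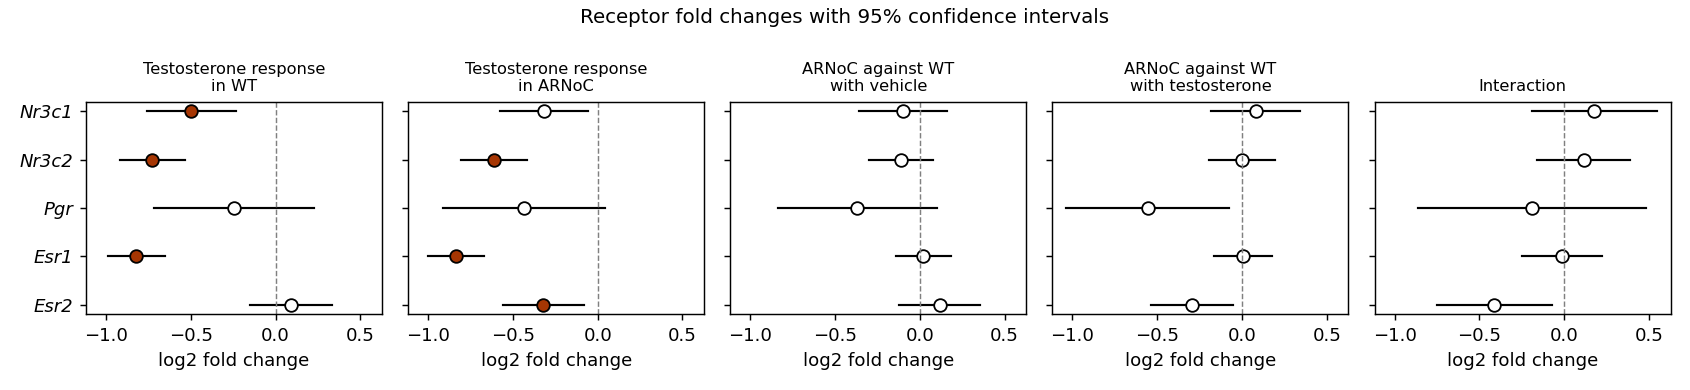
Log2 fold changes (horizontal axes) of the 5 receptors in the testosterone responses, the genotype comparisons and the interaction, from edgeR. Circles are estimates, lines are 95% confidence intervals, and filled circles have an adjusted p under 0.05. Filled circles appear in both testosterone panels, with Esr1 at −0.82 and −0.84, and in no genotype or interaction panel.

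Between genotypes no receptor passed the test. With vehicle, 0 of 5 were called, where 0.321% of all genes were called in either direction. The intervals of the ARNoC to WT difference were −0.36 to 0.16 for Nr3c1, −0.30 to 0.08 for Nr3c2, −0.84 to 0.10 for Pgr, −0.14 to 0.19 for Esr1 and −0.12 to 0.36 for Esr2 on the log2 scale. A difference of 1 on that scale therefore lay outside the interval of each of the 5. With testosterone, 0 of 5 were called, where 1.69% of all genes were called. Esr1 differed by 0.01 (interval −0.16 to 0.18) and Nr3c2 by 0.00261 (−0.19 to 0.20). Nr3c1 differed by 0.08 (−0.18 to 0.34). Pgr differed by −0.56 (−1.04 to −0.07) and Esr2 by −0.29 (−0.54 to −0.05), with edgeR's adjusted p at 0.263 and 0.234 (0.0258 and 0.0195 before adjustment). Their libraries overlapped: Pgr had 45.1 to 63.6 normalized counts in ARNoC and 43.6 to 129 in WT, and Esr2 had 132 to 217 and 199.7 to 243. In the interaction, 0 of 5 were called, where 0% of all genes were called by edgeR, 1306 genes had an unadjusted p under 0.05, and DESeq2 called 26. None of the 5 receptors was among the DESeq2 calls, their lowest adjusted p being 0.48 for Esr2. These comparisons share libraries with the testosterone responses and are not independent of them.

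Compared with each other per length of exon (normalized counts per kb), Nr3c2 and Nr3c1 were the most abundant, at 134 and 113 in WT with vehicle. Esr2 followed at 63.4, then Esr1 at 37.1 and Pgr at 11.3. With testosterone in WT the levels were 80.8, 79.1, 67.2, 20.9 and 9.47 in the same order. In ARNoC they were 124, 105, 68.6, 37.6 and 8.75 with vehicle, and with testosterone 80.7, 83.5, 54.5, 20.9 and 6.40. The libraries of Nr3c1 and Nr3c2 overlapped in all 4 groups, so that their order is not settled. Those of Esr2 overlapped with Nr3c1 in WT with testosterone, although Nr3c1 was above Esr2 within 4 of the 5 libraries. They also overlapped with Nr3c2 in ARNoC with testosterone, although Nr3c2 was above Esr2 within each of the 5 libraries. Every other neighbouring pair was separate in each group. The place of Esr1 depended on the length used: its annotated exons cover 13661 bases, whereas its longest transcript has 6339. Per length of the longest transcript, Esr1 was above Esr2 with vehicle (80.0 against 63.5 in WT and 80.9 against 68.7 in ARNoC, with overlapping libraries) and below it with testosterone (44.9 against 67.3 in WT, without overlap, and 45.1 against 54.5 in ARNoC, with overlapping libraries). Within libraries, by that length, Esr1 was above Esr2 in all 5 of each vehicle group. It was below Esr2 in 4 of 5 in ARNoC with testosterone. Among 37 ranked nuclear receptor genes, and per length of exon in WT with vehicle, Nr3c2 was 11, Nr3c1 14, Esr2 18, Esr1 25 and Pgr 32 from the top. With testosterone the places in WT were 15, 16, 18, 28 and 33.

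**Figure D4:**
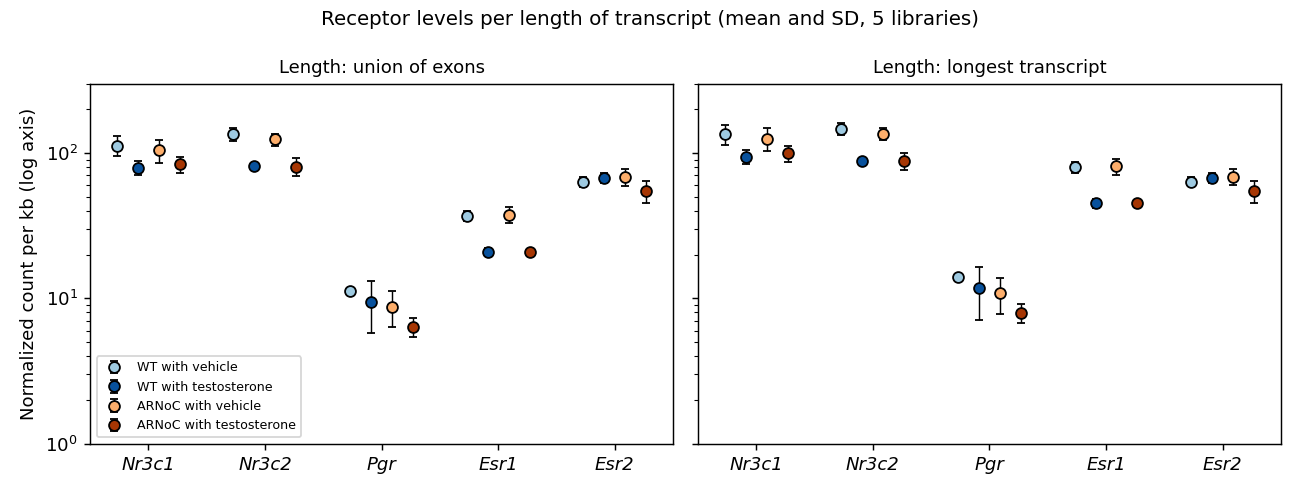
Levels of the 5 receptors as normalized counts per kb on a log axis, using the union of annotated exons (left) or the longest transcript (right). Circles are group means and whiskers SD (n = 5). Esr1 lies below Esr2 in all 4 groups on the left, and above it in both vehicle groups on the right.

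Across the 20 libraries the receptors varied together to different degrees, as a description in which the group differences enter. Between Esr1 and Nr3c2 Pearson's r of log2 normalized counts was 0.87 and Spearman's rho 0.67, but with the group means removed r was −0.29 and rho −0.38. For Nr3c1 and Esr1 r was 0.75, and 0.35 with group means removed. Esr2 and Nr3c2 had r = 0.41, and 0.51 with group means removed. Ranked over 11631 genes that averaged 50 normalized counts or more, those closest to Esr1 were Tmem64 (r = 0.97), Entpd8 (0.97) and Mpzl2 (0.97). Entpd8, which encodes an ectonucleotidase, fell far more than Esr1, from a mean of 1225 to 47.4 in WT and from 1123 to 42.3 in ARNoC. Closest to Nr3c2 were 8430419L09Rik (0.96), Tax1bp1 (0.95) and Rnf128 (0.95), and closest to Nr3c1 were Dgkd (0.93), Cd276 (0.92) and Arap3 (0.92). Pgr came closest to Wdr13 (0.85), Nacc2 (0.81) and Lphn2 (0.79), and Esr2 to Mkx (0.86), Fbxo25 (0.85) and Vipr1 (0.84). With the group means removed the leading genes were Crim1 (0.91), Nedd4 (0.90) and Sspn (0.90) for Nr3c1, Dnajc16 (0.89), Mfsd9 (0.84) and AU040320 (0.83) for Nr3c2, and Plxnb1 (0.82), Tnik (0.78) and Wdr13 (0.77) for Pgr. For Esr1 they were Asf1a (0.77), Azin2 (0.72) and Cd9 (0.72), and for Esr2 Fam107b (0.88), Fbxo25 (0.88) and Dnajc28 (0.86). Only Wdr13 for Pgr and Fbxo25 for Esr2 stood among the 3 closest in both rankings. All points share library, depth and cell makeup, and the highest of so many correlations over 20 libraries is high by selection.

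The receptors act within a set of related genes, which was followed in lists. Among 32 tested nuclear receptor genes outside the family, 3 were called higher and 6 lower in WT and 1 and 9 in ARNoC, with a median log2 fold change of −0.18 and −0.16. Over all tested genes 20.4% were higher and 18.8% lower in WT, and 19.4% and 16.8% in ARNoC. The clock repressors Nr1d1 and Nr1d2 fell 3.49-fold and 2.23-fold in WT and 3.68-fold and 2.52-fold in ARNoC, and the thyroid hormone receptor gene Thra fell 1.5-fold and 1.4-fold. Of 8 tested membrane-associated steroid receptor genes, 3 were higher and 0 lower in each genotype. In ARNoC the counts were 3 higher and 1 lower with DESeq2, upper-quartile scaling or the stromal score as a covariate. Gper1, the membrane oestrogen receptor gene, rose from 13.2 ± 5.99 to 81.9 ± 14.9 normalized counts in WT (6.21-fold) and from 8.79 ± 4.45 to 81.1 ± 21.4 in ARNoC (9.11-fold), a direction opposite to that of Esr1. Paqr8, a membrane progestin receptor gene, rose 2.94-fold and 2.24-fold, and Nenf rose 1.25-fold and 1.33-fold. The WT call for Nenf was lost when any 1 of WT vehicle libraries 3 and 4 or WT testosterone libraries 2, 4 and 5 was left out (log2 0.29, 0.29, 0.22, 0.26 and 0.29), and under total-count scaling it was −0.11, which is 0.34 above the median gene on that scale.

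Receptor chaperones and co-chaperones gave 6 higher and 4 lower of 23 tested in each genotype. In WT that balance turned with upper-quartile scaling (5 higher and 7 lower) and with the stromal score as a covariate (2 and 6). In ARNoC the counts were 6 and 5 under both settings. Over all tested genes 39.2% were called in either direction in WT and 36.2% in ARNoC. Fkbp5, which lowers the hormone binding of the glucocorticoid receptor and is a classical target of steroid receptors, rose from 1567 ± 164 to 8575 ± 1196 in WT (5.50-fold) and from 1693 ± 164 to 9529 ± 1145 in ARNoC (5.65-fold). Ppp5c, a phosphatase of the receptor complex, rose 1.29-fold in both, and under total-count scaling its WT value was −0.06 on the log2 scale, which is 0.39 above the median gene. Dnaja2 fell 1.32-fold and 1.36-fold. Of 20 tested genes in the list of enzymes that make or inactivate ligands, 6 were higher and 5 lower in WT and 7 and 5 in ARNoC. H6pd, which supplies the cofactor for glucocorticoid reactivation, fell 2.19-fold in WT and 1.93-fold in ARNoC. Hsd17b7 rose 1.65-fold and 1.83-fold, and Hsd3b7 rose 1.51-fold and 1.31-fold. Whether the products of Hsd17b7 and Hsd3b7 act on a ligand of these receptors here was not tested. Hsd11b1, the reductase that reactivates glucocorticoids, was not called (62.7 ± 42.2 to 78.8 ± 40.2 in WT and 69.9 ± 29.9 to 101 ± 39.5 in ARNoC). Hsd11b2, the dehydrogenase that keeps glucocorticoids from the mineralocorticoid receptor, was low. It rose in ARNoC from 10.5 ± 4.00 to 32.8 ± 10.7 (3.12-fold, adjusted p = 0.000198). In WT it had 25.97 ± 10.1 and 40.3 ± 5.08 (adjusted p = 0.0738, and 0.0209 without WT vehicle library 1). The WT rise also passed with limma-trend at pseudocount 5 (adjusted p = 0.0455), limma-voom (0.0385) and the stromal score as a covariate (0.0356). It stayed uncalled in 9 of 12 alternatives. Of the 20 tested enzyme genes, 0 were called in the interaction. Cyp19a1, which encodes the aromatase that makes oestrogen from testosterone, had 1 count in 1 of the 20 libraries.

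**Figure D5:**
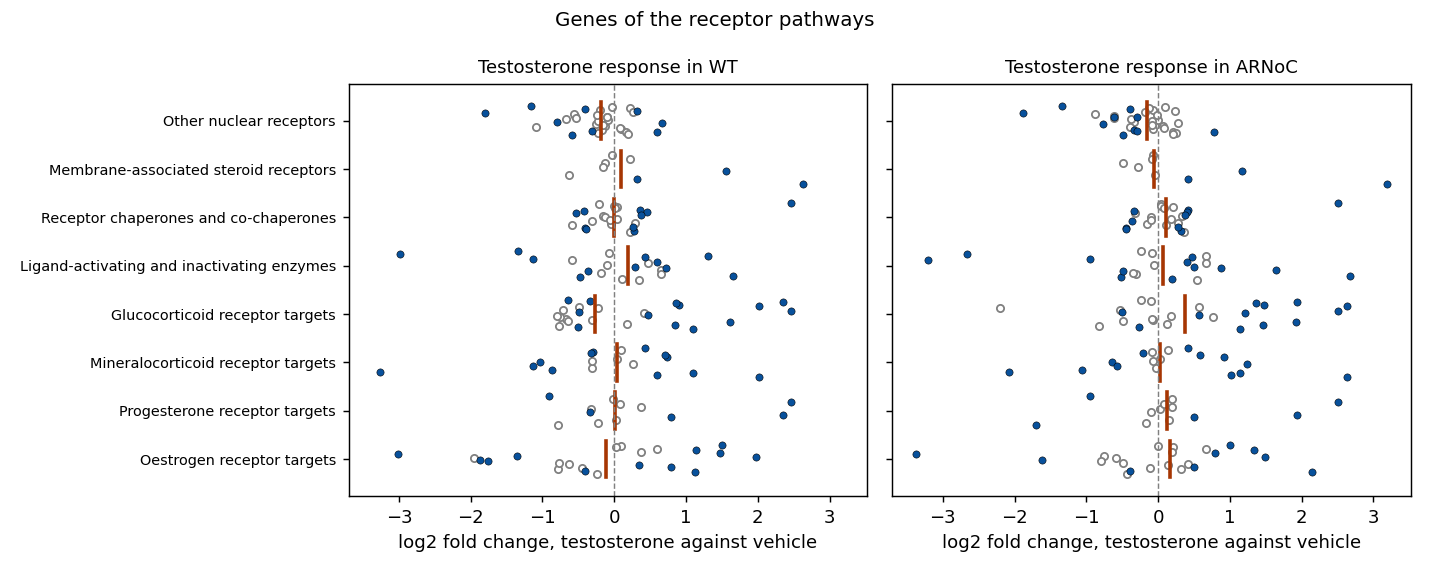
Log2 fold change with testosterone (horizontal axes) for the tested genes of 8 lists in WT (left) and ARNoC (right). Each circle is a gene, filled where the adjusted p was under 0.05, and the vertical bar is the median of the list. Filled circles lie on both sides of 0 in both genotypes for each list except the membrane-associated receptors, with 3 higher and 0 lower.

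Genes listed as targets of the 5 receptors moved in both directions, and many of them also respond to androgen, so the lists are not specific to a receptor. Glucocorticoid receptor targets gave 9 higher and 4 lower of 24 tested in WT (median −0.27) and 10 and 2 in ARNoC (median 0.37). In WT that median had the opposite sign to the balance of calls, and with the stromal score as a covariate it was 0.10. Zbtb16 rose 5.08-fold and 3.8-fold, Sgk1 rose 4.05-fold and 6.18-fold, and Tsc22d3 (a glucocorticoid-induced leucine zipper gene) rose 2.13-fold and 2.20-fold, while Nr3c1 itself was lower in WT. The called share of all tested genes was 39.2% in WT and 36.2% in ARNoC. Mineralocorticoid receptor targets gave 6 higher and 6 lower of 17 in WT and 7 and 5 in ARNoC. Progesterone receptor targets gave 3 higher and 2 lower of 12 in each genotype. Zbtb16 and Fkbp5, which rose, had the smallest adjusted p of this list in WT and also stand on the glucocorticoid list, so the lists share members. Hoxa10 fell 1.87-fold and 1.93-fold. Oestrogen receptor targets gave 7 higher and 5 lower of 22 in WT and 6 and 3 in ARNoC. Nrip1, a corepressor of the oestrogen receptors, rose 3.92-fold and 2.82-fold, the prolactin receptor gene Prlr rose 2.84-fold and 2.0-fold, and Vegfa rose 2.21-fold and 2.52-fold. Greb1, a sensitive oestrogen target elsewhere, had 100 counts over the 20 libraries and was not tested. Under total-count scaling, which places the median gene at −0.44 in WT and −0.36 in ARNoC, the calls shifted to lower in every list with testosterone, for example to 6 higher and 10 lower for the glucocorticoid targets and 4 and 11 for the oestrogen targets in WT.

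Between genotypes the pathway lists held calls for 5 genes. Of all tested genes 0.321% were called between genotypes with vehicle and 1.69% with testosterone. The interaction called 0 of the 17 tested mineralocorticoid receptor targets. With vehicle, Zbtb16 was higher in ARNoC (306.8 ± 30.6 against 229 ± 22.9 normalized counts, adjusted p = 0.0357). Leaving out a library ended that call (adjusted p = 0.0651 to 0.108) for each of the vehicle libraries except WT library 5 and ARNoC library 4. With testosterone, 3 of 17 tested mineralocorticoid receptor targets were higher in ARNoC: the sodium pump gene Atp1b1 (13037 ± 1050 against 8075 ± 715, 1.62-fold, adjusted p = 0.000407), Edn1 (496 ± 147 against 230.5 ± 53.7, 2.16-fold, adjusted p = 0.00888) and the sodium channel gene Scnn1b (1281 ± 123 against 909.5 ± 71.5, 1.41-fold, adjusted p = 0.0127). Nrip1 was lower in ARNoC (4200 ± 416 against 5681 ± 283, 1.35-fold, adjusted p = 0.0114). Of the receptors of those lists, Nr3c2 differed by 0.00261, Esr1 by 0.01 and Esr2 by −0.29 in the same comparison, none of which was called.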

How the data were processed

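Total RNA of snap-frozen ventral prostates was made into Illumina TruSeq libraries, per the labels' protocols. The submitters' processing notes list the build mm10, HISAT2, HTSeq, DESeq2, SAMtools 1.5 and FastQC 0.11.7, without roles. The sources used here give neither annotation nor strand setting. The authors deposited raw read counts per gene symbol. For 23221 genes they also deposited a scaled signal, here called the normalized count: each count over the size factor of its library. The deposited ratio values are those size factors. Multiplying back by the size factors returned the counts to within 4.19e-09, and 0 sample columns were left unmatched. Libraries held 8861646 to 21600352 counts, and the precision of a gene follows its own count.

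The 15261 genes tested had 10 normalized counts or more in 5 or more libraries. After TMM scaling (trimmed means of M-values), a model with a mean for each group was fitted to all 20 libraries and tested by quasi-likelihood (edgeR 4.0.16, R 4.3.3). Benjamini-Hochberg adjustment ran over all genes, with a threshold of 0.05. Genes had a common biological coefficient of variation of 0.214. The test was checked on simulated data. Ratios within a library used the count plus 0.5 per exon length, and marker scores are the mean of log2(normalized count + 1), both tested with exact two-sided permutation tests and adjusted over 8 tests and over the 11 scored lists of a comparison. Gene positions and lengths come from GENCODE M21 (mm10) and promoters from RefSeq (GRCm38.p6), of which 4 of the 5 receptors matched. Libraries are numbered as the labels list them, which pairs none of them.

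The 5 receptors, the lists and the rules were chosen with earlier results of these data known. By rule, each pathway list named its 3 tested members of smallest adjusted p in the WT response and any member called between genotypes, besides Fkbp5, Tsc22d3, Sgk1, Hsd11b1, Hsd11b2, Cyp19a1 and Greb1. Genes of the mineralocorticoid target list that this rule also named are not reported here. The other marker lists differed with testosterone as follows, with exact permutation tests adjusted over lists: smooth muscle 0.43 in WT and 0.77 in ARNoC, basal epithelium −0.22 and −0.20, endothelium −0.91 and −0.13, adipocytes −2.41 and −0.12, nerve −0.27 and −0.02, and urothelium −0.23 and −0.99, none with an adjusted p under 0.0873, and prostate identity 2.04 and 2.14 (adjusted p = 0.0218 and 0.0291). No list had an adjusted p under 0.261 between genotypes. Alternatives were DESeq2 1.42.0, limma 3.58.1 (trend with pseudocount 1 or 5, and voom), other scalings (RLE, total counts, upper quartile), no filter, a minimum of 50, a robust fit, the compared groups alone, the stromal score as a covariate, and leaving out libraries. Plots used matplotlib 3.10.9.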

Additional observations from a re-analysis of the deposited data

Results flagged for a closer look

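In 28 sets of 5 libraries (5 receptors and 2 ratios in 4 groups), the highest or lowest library was compared with the others by Dixon's gap test, with a critical share of 0.71 of the range. Chance alone passes that share in about 1 set in 20, and 2 sets passed it. The first is Nr3c2 in ARNoC with vehicle, where library 5 had 939.9 normalized counts and the other 4 had 746 to 779, a gap of 0.83 of the range. That library also had the lowest stromal marker score of its group (7.77), and without it the ARNoC testosterone response of Nr3c2 was −0.54 on the log2 scale against −0.61 with it. The second is the log2 ratio of Esr1 to Esr2 in WT with testosterone, where library 5 had −1.37 and the other 4 had −1.81 to −1.74, a gap of 0.841 of the range.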

How the results depend on the processing

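The 25 receptor results were refitted 620 times in all, of which 573 kept their sign and their side of the threshold. The falls of Esr1 and Nr3c2 in both genotypes and of Nr3c1 in WT kept both in each of those run. The response of Nr3c1 in ARNoC (−0.32) passed the threshold with DESeq2 (−0.33), total-count scaling (−0.67), upper-quartile scaling (−0.35), no filter (−0.37), a minimum of 50 counts (−0.33), a robust fit (−0.32), the stromal covariate (−0.25) and without both stroma-poor libraries (−0.37), and ran from −0.40 to −0.24 when single libraries were left out. The fall of Esr2 in ARNoC did not pass with limma-voom (−0.29), with the compared groups alone (−0.36) and without both stroma-poor libraries (−0.32), and ran from −0.43 to −0.26 without single libraries. Under total-count scaling Pgr passed in WT (−0.65) and ARNoC (−0.77), and Esr2 (−0.34), Nenf (−0.11) and Ppp5c (−0.058) were negative in WT but above the median gene, which that scaling places at −0.44, while Hsd17b7 in WT, Nenf and Ppp5c in ARNoC and Hsd3b7 in both lost their calls. For the changes under other settings the cause was not tested. Other sign changes concern uncalled values near 0. For ARNoC against WT with testosterone these were Nr3c1 with the stromal covariate (−0.044), Nr3c2 with limma-trend at pseudocount 1 and 5 (both −0.013; −0.054 to 0.074 without single libraries) and Esr1 with DESeq2 (−0.000487), limma-voom (−0.0015) and the stromal covariate (−0.029; −0.028 to 0.037 without single libraries). For the interaction they were Pgr with limma-voom (0.0063; −0.34 to 0.047 without single libraries) and Esr1 with total-count scaling (0.056; −0.053 to 0.051 without single libraries). Without single libraries Esr1 ran from −0.044 to 0.061 with vehicle, and the Nr3c1 to Nr3c2 ratio from −0.12 to 0.12 with vehicle and from −0.028 to 0.16 with testosterone.

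Counts of all called genes moved by more than 1.5 times with total-count scaling in WT (10219, with 1099 higher and 9120 lower, against 5985, with 3114 and 2871) and ARNoC (8726, with 1178 and 7548, against 5527, with 2962 and 2565). Upper-quartile scaling gave 2763 higher and 3418 lower in WT. For the genotypes with vehicle, counts were 134 with DESeq2, 19 with the groups alone and 78 with the stromal covariate, against 49, and 29 to 71 without single libraries, the lowest without WT vehicle library 4 or ARNoC vehicle library 1. With testosterone they were 500 with DESeq2 and 437 with total-count scaling (336 higher and 101 lower), against 258 (104 and 154), and 153 to 258 without single libraries, the lowest without WT testosterone library 3. For the interaction, 26 genes were called with DESeq2, 1 with limma-trend at pseudocount 1, 2 with total-count scaling and 2 with no filter, against 0, and 0 to 2 without single libraries. Pgr had the lowest counts of the 5, 37 to 118 per library, and its coefficient of variation between libraries reached 39.2% in WT with testosterone. No paired analysis was possible because the labels give no replicate numbers.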
